A study of Mus musculus with 5 samples.

Results

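The 34 genes described here belong to the secretory pathway of the endoplasmic reticulum (ER) and to its unfolded protein response, and they were chosen as a list of symbols from 27726 genes shared by all 5 single-cell RNA libraries. They cover 9 lumenal chaperones and co-chaperones, 3 disulfide isomerases, 2 lectin chaperones, 6 sensors and transcription factors, 3 targets of ATF4 and CHOP, 4 components of ER-associated degradation and 7 subunits of the translocon and its TRAP partner. The cells were group 2 innate lymphoid cells (ILC2s), sorted from the lungs of wild-type female C57BL/6 mice, 4 to 8 weeks old, as lineage-negative CD45+ ST2+ CD127+ Thy1.2+ cells, with 5 mice pooled per group. Naive ILC2s (1 library) came from mice without a tumour and were not activated. The ta-non-activated ILC2s (2 libraries) came straight from the lungs of mice carrying subcutaneous TC1 lung tumour cells, 2 or 3 weeks into tumour growth. The ta-activated ILC2s (2 libraries, week 2 and week 3) came from such tumour-bearing mice and were then cultured for 7 days with IL-2, IL-33 and TSLP at 10 ng/mL each. Levels are given in CPM, a gene's unique molecular identifiers (UMIs) scaled to the UMI total of its library, after barcodes with fewer than 200 genes or with 5% or more mitochondrial UMIs were set aside.

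ILC2s are lymphocytes of mucosal tissue that lack antigen receptors and release IL-5 and IL-13 when epithelial alarmins such as IL-33 reach them. Every cytokine they release is first threaded into the ER through the Sec61 translocon, folded there by chaperones and disulfide isomerases, and either sent on to the Golgi or drawn back out for degradation. When folding falls behind, the sensors ATF6, IRE1 (Ern1) and PERK raise chaperone and degradation genes through ATF6 itself and XBP1, and amino acid and stress genes through ATF4 and CHOP (Ddit3).

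The files held 18628 barcodes, of which 16530 were kept, with 1601 to 6389 cells a library. The median depth ran from 4396 UMIs per cell in the week 3 ta-non-activated library to 16090 in the week 2 ta-non-activated library. Pairs of libraries shared 1 to 11 barcodes. One library stood apart from its label: 53.1% of the week 3 ta-non-activated cells were T-like (2 or more UMIs of Cd3d and Cd3e together), against 1.10% to 7.45% elsewhere. Its 9 T cell markers summed to 4348 CPM, against 249.7 to 930.2 in the others, and its 12 ILC2 markers to 2043 CPM, against 9329.9 to 12037. Without its 850 T-like cells the same lists summed to 1414 and 5461 CPM, still above and below the other libraries. The 12 ILC2 markers include Il13, which made up most of the week 2 ta-non-activated sum and little of the week 3 one. These sums thus do not order the libraries by ILC2 identity alone. Levels of that library are given with and without T-like cells where the level of a gene in every library is listed, and ranges over libraries use all kept cells. Ratios between libraries, and counts or shares based on them, that are given without T-like cells leave these out of every library. In the naive library these were 476 cells. Of plasma cells, which hold much ER, the 7 markers summed to 7.41 to 134 CPM, highest in that library and mostly Ighm (109 CPM). Igha stayed at or below 0.106 CPM and Jchain at or below 0.942 CPM in every library, and Mzb1 reached 21.2 CPM in week 3 ta-non-activated ILC2s (3.41 CPM without T-like cells). With 5 pooled mice per library, p-values measure only the spread between libraries, and in sums over cells, fewer cells of a type and less RNA per cell cannot be told apart.

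Summed over the 34 genes, week 2 ta-non-activated ILC2s stood highest, both cultured libraries lay between, and the naive and week 3 ta-non-activated libraries were lowest. The sum was 4912 CPM in naive ILC2s (95% exact Poisson interval 4888 to 4937), 9098 in week 2 ta-non-activated ILC2s (9065 to 9130.0), and 4786 in week 3 ta-non-activated ILC2s (4742 to 4831). After culture it was 7035 CPM in week 2 (7014 to 7057) and 6422 CPM in week 3 (6402 to 6442). These intervals cover counting error only. Median UMIs per cell ranked the libraries in the same order. They were 16090 and 4396 in week 2 and week 3 ta-non-activated ILC2s and 4517 in naive ones. After culture they were 13636 in week 2 and 12296.5 in week 3. The part of depth in this order was not tested. A single gene, Ern1, made up 1313 CPM of the naive sum, and without it the naive library stood lowest, at 3599.8 CPM, against 4753 in week 3 ta-non-activated ILC2s. Without its T-like cells the week 3 ta-non-activated library stood at 4355 CPM.

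**Figure D1:**
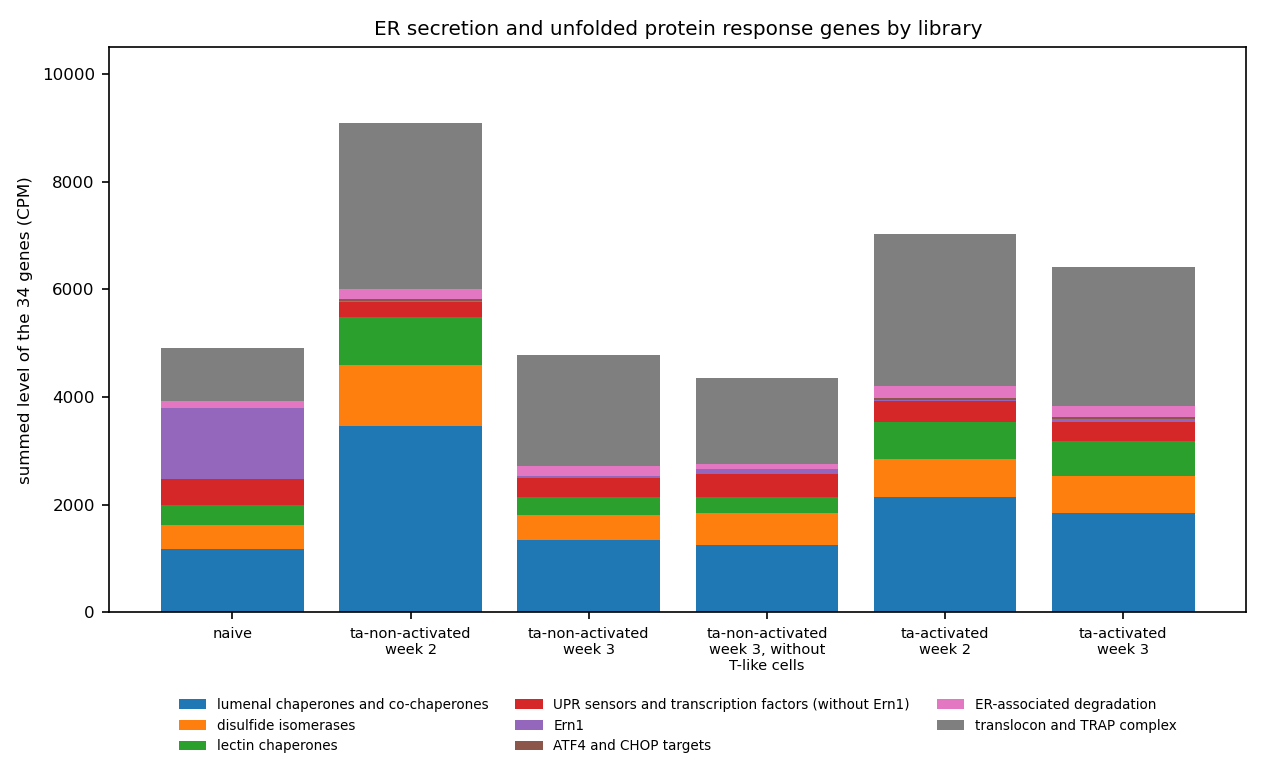
Summed level in CPM (vertical axis) of the 34 genes in each library, with bar segments for the 7 roles and Ern1 drawn apart from the other sensors. The week 2 ta-non-activated bar reaches 9098 CPM, the cultured bars 7035 and 6422, and the naive bar 4912, of which Ern1 is 1313.

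The lumenal chaperones and co-chaperones carried much of this order, with sums of 1181, 3469, 1340.3 (1250.5), 2147 and 1843 CPM in naive, ta-non-activated week 2 and week 3, and ta-activated week 2 and week 3 ILC2s, the order kept in the sentences that follow. The value in parentheses after the week 3 ta-non-activated one leaves out its T-like cells. Hspa5 (ENSMUSG00000026864, chr2:34771970-34777547), which encodes BiP, the central HSP70 chaperone of the ER, was at 427, 838, 510.4 (442), 409 and 456 CPM. It was highest in week 2 ta-non-activated cells, and both cultured libraries were below both ta-non-activated ones, though not when T-like cells were left out of week 3. Hsp90b1, the ER member of the HSP90 family, was at 283, 1009.9, 326 (368), 653 and 557 CPM. Manf, a small secreted chaperone cofactor of BiP, was at 152, 808, 193 (164), 548 and 385 CPM. Both were thus lowest in naive and week 3 ta-non-activated ILC2s and intermediate after culture. Sdf2l1, a partner of BiP and its J proteins, was at 31.9, 233, 67.5 (45.6), 145 and 92 CPM. Creld2, an ER stress-inducible isomerase-like protein, was at 17, 121, 21.4 (17.5), 54 and 40.9 CPM. The J protein Dnajb11 followed the same order of libraries, at 57.6, 224, 70.3 (75.9), 142 and 122 CPM. Hyou1, the large HSP70-like exchange factor of BiP, was low throughout and again highest in week 2 ta-non-activated cells (48.8 CPM, against 14 to 24.6 in the others). Dnajc3, the J protein p58IPK, spanned only 74.6 to 161 CPM. Dnajb9, the J protein ERdj4 that restrains IRE1, ran the other way, with 65.2 CPM in naive and 26 in week 2 ta-non-activated ILC2s, and 56.4 in week 3 ones (37.1 without T-like cells).

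**Figure D2:**
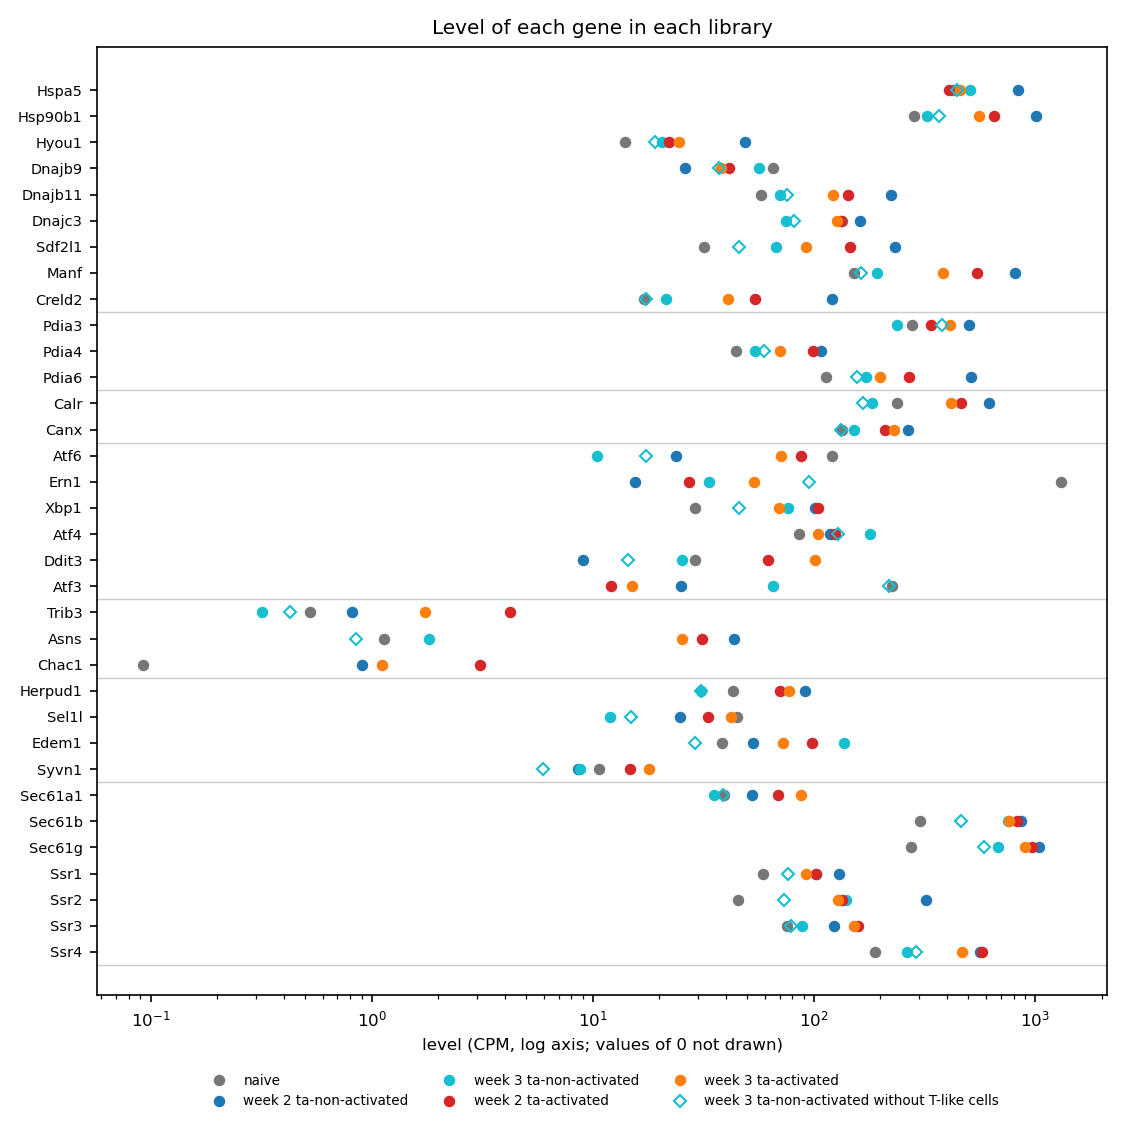
Level of each gene (rows, grouped by role between the grey lines) in CPM on a log axis, with 1 point per library and an open diamond for week 3 ta-non-activated cells without T-like cells. Most chaperone and translocon genes have the week 2 ta-non-activated point furthest right, while Ern1 in naive ILC2s, at 1313 CPM, lies far from its other points.

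Promoters of this group are shown because the ER stress response element, the site through which ATF6 and XBP1 act on chaperone genes, is written in several of them. Windows of 300 bases (250 before and 50 after the RefSeq start, build GRCm38.p6) were found for 29 of the 34 genes. Hyou1, Manf, Atf6, Sec61a1 and Ssr2 had no entry. The ERSE letters CCAAT and CCACG with 9 bases between them, searched on both strands, were in 8 of the 29 windows (27.6%), those of Hspa5, Hsp90b1, Dnajc3, Creld2, Pdia6, Calr, Canx and Syvn1, and in 0.137% of 27025 genes with a window. Capitals below mark the match, which begins 65 bases before the start in Hspa5, 98 in Pdia6, and 212 and, on the opposite strand, 107 in Hsp90b1.
Hspa5, chr2:34771840-34772139, plus strand: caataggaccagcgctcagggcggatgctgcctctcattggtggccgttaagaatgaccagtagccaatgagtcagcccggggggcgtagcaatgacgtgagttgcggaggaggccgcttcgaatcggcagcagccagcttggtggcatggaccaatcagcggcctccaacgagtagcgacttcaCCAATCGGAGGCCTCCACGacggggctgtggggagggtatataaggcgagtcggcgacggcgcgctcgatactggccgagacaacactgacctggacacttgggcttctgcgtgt
Hsp90b1, chr10:86705395-86705694, minus strand: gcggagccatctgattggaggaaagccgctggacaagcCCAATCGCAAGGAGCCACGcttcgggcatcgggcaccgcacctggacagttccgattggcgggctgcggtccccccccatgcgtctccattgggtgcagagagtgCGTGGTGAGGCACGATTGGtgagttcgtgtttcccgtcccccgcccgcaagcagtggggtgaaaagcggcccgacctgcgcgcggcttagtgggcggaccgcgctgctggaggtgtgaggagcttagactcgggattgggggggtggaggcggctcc
Pdia6, chr12:17266339-17266638, plus strand: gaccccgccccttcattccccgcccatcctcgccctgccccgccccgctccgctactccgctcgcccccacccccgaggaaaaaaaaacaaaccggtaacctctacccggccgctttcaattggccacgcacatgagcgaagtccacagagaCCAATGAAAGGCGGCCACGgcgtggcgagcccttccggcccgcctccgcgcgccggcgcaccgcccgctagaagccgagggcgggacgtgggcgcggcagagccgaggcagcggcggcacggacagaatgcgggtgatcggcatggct
From naive to week 2 ta-non-activated ILC2s the log2 ratios of the 8 genes with a match ran from -0.29 (Syvn1) to 2.76 (Creld2). Members whose windows lacked the ERSE letters lay both above this range, as Asns and Sdf2l1, and below it, as Ern1 and Atf3. The related ERSE-II letters, ATTGG and CCACG with 1 base between them, were in 2 windows (6.90%), those of Dnajb11 and Herpud1, against 0.0444% of all genes. No window of a member held the UPRE letters TGACGTGG, which 0.714% of all genes had. None of these matches overlapped a match of another motif, and a match describes letters only.

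Disulfide isomerases and lectin chaperones, which make disulfide bonds and fold glycoproteins, were ordered much like the chaperones. Pdia6 was at 113, 513, 173 (156), 269 and 199 CPM. Pdia4 was at 44.5, 108, 54.2 (59.7), 98.8 and 70.3 CPM. Pdia3 (ERp57, the isomerase bound to the lectin chaperones) differed less, from 237 CPM in week 3 to 503 CPM in week 2 without culture, and its week 3 value was 379 CPM without T-like cells. Calr, the soluble lectin chaperone calreticulin, was at 237, 623, 183 (167), 463 and 417 CPM, so that both cultured libraries lay above the naive and week 3 ta-non-activated ones. Its membrane-bound relative calnexin (Canx) followed with a narrower range, 134 to 266 CPM.

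Sensors and transcription factors did not share that order. Ern1 (chr11:106394650-106487852), the kinase and nuclease IRE1 that splices Xbp1 mRNA, was at 1313, 15.5, 33.5 (94.7), 27.2 and 53.8 CPM. Atf6 (chr1:170704674-170867771), the membrane-bound transcription factor, was at 121, 23.7, 10.4 (17.5), 87.3 and 71 CPM. Both genes were highest in the naive library, and both hold long introns, 85030 and 153867 bases. Xbp1 was lowest in naive cells (29 CPM) and lay between 69.8 and 105 CPM in the other 4 libraries, with 46.1 CPM in week 3 without T-like cells. Counts per gene do not separate spliced from unspliced Xbp1. Atf4, whose control is largely translational, ranged from 85.4 to 179 CPM. Ddit3 (chr10:127290774-127296288), which encodes CHOP, was at 28.9, 9, 25.4 (14.5), 62.3 and 102 CPM. Both cultured libraries lay above all 3 fresh ones. Atf3, a stress-induced repressor that also belongs to the immediate-early response to tissue handling, was at 224, 25.2, 65.2 (219), 12.1 and 15 CPM. It was lowest in both cultured libraries.

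Targets of ATF4 and CHOP had 37 UMIs or fewer each in naive and in week 3 ta-non-activated ILC2s. Trib3 and Chac1 were also scarce in week 2 ta-non-activated ILC2s, at 27 and 30 UMIs. Asns (chr6:7675169-7693254), asparagine synthetase, was at 1.14 CPM in naive ILC2s (37 UMIs, interval 0.804 to 1.57) and 1.81 in week 3 ta-non-activated ILC2s (17 UMIs, 1.05 to 2.9). It was at 43.4 CPM in week 2 ta-non-activated cells (41.2 to 45.7) and at 31.3 and 25.3 CPM after culture, so that 3 libraries held it well above the other two. Trib3, a pseudokinase that dampens CHOP output, was at 0.525, 0.813, 0.319 (0.426), 4.24 and 1.75 CPM. Chac1, which degrades glutathione, had 3 UMIs in naive and 0 in week 3 ta-non-activated cells, which by a floor of 3 UMIs allows up to 0.319 CPM there, and was at 0.903, 3.1 and 1.12 CPM in week 2 ta-non-activated and both cultured libraries. Trib3 and Chac1 were both highest in week 2 ta-activated cells. With a mean under 5 CPM they entered no count of 2-fold differences, leaving 32 of 34 members, except where a lower minimum is named. The CARE letters TGATGNAA, a site for ATF4 with C/EBP partners, were in 5 of 29 windows (17.2%), those of Atf3, Trib3, Asns, Chac1 and Herpud1, and in 4.51% of all genes. The windows of Asns and Herpud1 are shown for the CARE letters and, in Herpud1, the ERSE-II letters as well. Asns, Herpud1, Trib3 and Chac1 were lowest in naive and week 3 ta-non-activated ILC2s. Atf3, with the same CARE letters, was highest in those libraries. Capitals again mark the matches, and in Herpud1 the CARE match stands on the opposite strand, ahead of the ERSE-II match.
Asns, chr6:7693160-7693459, minus strand: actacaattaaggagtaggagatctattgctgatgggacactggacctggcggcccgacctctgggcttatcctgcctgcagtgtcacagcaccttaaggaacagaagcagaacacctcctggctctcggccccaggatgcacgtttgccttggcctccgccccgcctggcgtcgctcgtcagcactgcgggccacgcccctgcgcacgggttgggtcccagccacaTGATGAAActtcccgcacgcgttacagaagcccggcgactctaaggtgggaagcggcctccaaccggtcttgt
Herpud1, chr8:94386179-94386478, plus strand: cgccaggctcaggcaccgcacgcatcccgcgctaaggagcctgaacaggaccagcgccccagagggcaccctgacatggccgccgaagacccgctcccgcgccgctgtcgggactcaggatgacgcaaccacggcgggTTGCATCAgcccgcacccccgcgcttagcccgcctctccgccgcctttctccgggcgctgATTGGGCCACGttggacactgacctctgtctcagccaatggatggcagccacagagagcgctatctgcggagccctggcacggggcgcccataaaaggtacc

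ER-associated degradation returns misfolded proteins to the cytosol. Herpud1, a ubiquitin-like scaffold of the complex, was at 43, 90.7, 30.9 (30.7), 70.2 and 76.8 CPM. Sel1l, the adaptor of the ubiquitin ligase, was at 45, 24.7, 11.9 (14.9), 33.1 and 42.3 CPM. Syvn1, the ligase HRD1 itself, was at 10.7, 8.58, 8.73 (5.97), 14.8 and 18 CPM. For Sel1l and Syvn1 both cultured libraries lay above both ta-non-activated ones. Edem1, a lectin that extracts glycoproteins for disposal, was at 38.5, 53.1, 136 (29), 98.3 and 72.5 CPM, with 172 CPM in the T-like cells of week 3.

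All 7 genes of the translocon and TRAP were lower in naive than in week 2 ta-non-activated ILC2s. In week 2, 5 of them were at least 2-fold higher than in naive cells, against 20.6% of the 9223 genes tested. Sec61g and Sec61b, the small Sec61 subunits, were at 275 and 302 CPM in naive ILC2s and between 684 and 1039 CPM in the other 4 libraries. Without T-like cells their week 3 ta-non-activated levels were 586 and 464 CPM. Sec61a1, the pore subunit, was highest after culture, at 39.3, 52.2, 35.4 (38.8), 68.9 and 87.4 CPM. These levels are UMIs per library, and in this list they were compared between libraries and not between genes. Among the TRAP subunits, which assist translocation, Ssr4 was at 189, 566, 265 (290.0), 574 and 469 CPM. Ssr2 was at 45.4, 322, 140.1 (73.4), 133 and 128 CPM. Ssr2 was thus highest in week 2 ta-non-activated cells and lowest in naive ones, and Ssr1 and Ssr3 spanned 59.2 to 129.9 and 75.5 to 158 CPM.

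The naive library was then set against each ta-non-activated library, to ask how a growing tumour went with the secretory genes of lung ILC2s. With 1 naive library there was no test, and a gene was counted when it differed at least 2-fold on log2(CPM + 1), among genes with a mean of at least 5 CPM over the 5 libraries. In week 2, 17 of 32 members were at least 2-fold higher than in naive ILC2s, against 20.6% of 9223 genes, and 5 were at least 2-fold lower, against 30.8%. The member median was a log2 ratio of 1.09, and that of all genes was -0.17. Those higher included Asns (4.37), Sdf2l1 (2.83), Ssr2 (2.80), Creld2 (2.76), Manf (2.40) and Pdia6 (2.17). Those lower were Ern1 (-6.31), Atf3 (-3.11), Atf6 (-2.30), Ddit3 (-1.58) and Dnajb9 (-1.29), 4 of them sensors or transcription factors. Scaling by TMM moved the median of all genes in this comparison by 0.27 on the log2 scale, and then 20 members were higher, against 27% of genes, and 5 lower, against 26%.

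In week 3, 7 members were at least 2-fold higher than in naive ILC2s, against 18.2% of genes, and 4 were lower, against 26.5%. Those higher were Edem1 (1.80), Ssr2 (1.60), Xbp1 (1.37), Sec61b (1.32), Sec61g (1.31), Atf4 (1.06) and Sdf2l1 (1.06). Once T-like cells were left out, 1 member, Sec61g (1.09), stayed in that count, against 4.04% of genes, and 3 were lower, against 21.7%. Edem1 then stood at -0.30, and Ern1 (-3.86), Atf6 (-2.40) and Sel1l (-1.49) remained lower. Atf3, lower by -1.77 with all cells, stood at -0.05 without the T-like ones.

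The naive library differed from the others in how it was made, and a gene's intron length moved with these ratios. Its file was written by Cell Ranger 6.0.0 with 28831 genes, the others by Cell Ranger 3.0.2 with 27726. Across 9222 genes the Spearman correlation of the log2 ratio with total intron length was -0.52 in week 2 and -0.54 in week 3, given as a description over genes that share 2 libraries. The members' median intron length was 9738.5 bases, below the 19465.5 of all tested genes. Among the 2983 genes with introns shorter than the members' median, the median log2 ratio was 0.60 in week 2 and 0.57 in week 3. Of these genes 36.4% were at least 2-fold higher and 11.5% at least 2-fold lower in week 2. In week 3 the shares were 31.5% and 9.05%. Without T-like cells they were 9.62% and 2.98% of 2922 such genes in week 3, where the correlation was then -0.65. The part of intron length or software version in the members' naive ratios was not tested, and naive status and processing cannot be told apart. Between the other 4 libraries the same correlation, over all kept cells, stayed between 0.07 and 0.17.

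Between the ta-non-activated libraries the members were mostly lower in week 3. In all, 15 of 32 were at least 2-fold lower, against 11.2% of genes, and 5 were at least 2-fold higher, against 17.1%. The largest of these differences were those of Asns (-3.98), Creld2 (-2.44) and Manf (-2.06), followed by Sdf2l1 (-1.77), Calr (-1.76) and Dnajb11 (-1.66). Without T-like cells 12 were lower, against 18% of genes, and 2 were higher, against 17.3%. Those 2 were Atf3 (3.07) and Ern1 (2.53), and Creld2 and Manf stood at -2.72 and -2.30. Asns was then left with 2 UMIs in week 3 (0.853 CPM, interval 0.103 to 3.08). Il13, the main ILC2 cytokine transcript, was at 8861 CPM in week 2 and 19.6 CPM in week 3 (78 without T-like cells), beside 55.6 CPM in naive ILC2s. The TMM scaling moved the median of all genes here by -0.24, and then 18 members were lower, against 16.7% of genes, and 3 higher, against 13.3%. Both cultured libraries were close to each other, since 0 of 32 members differed at least 2-fold in either direction, against 2.73% of genes higher and 2.2% lower in week 3.

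**Figure D3:**
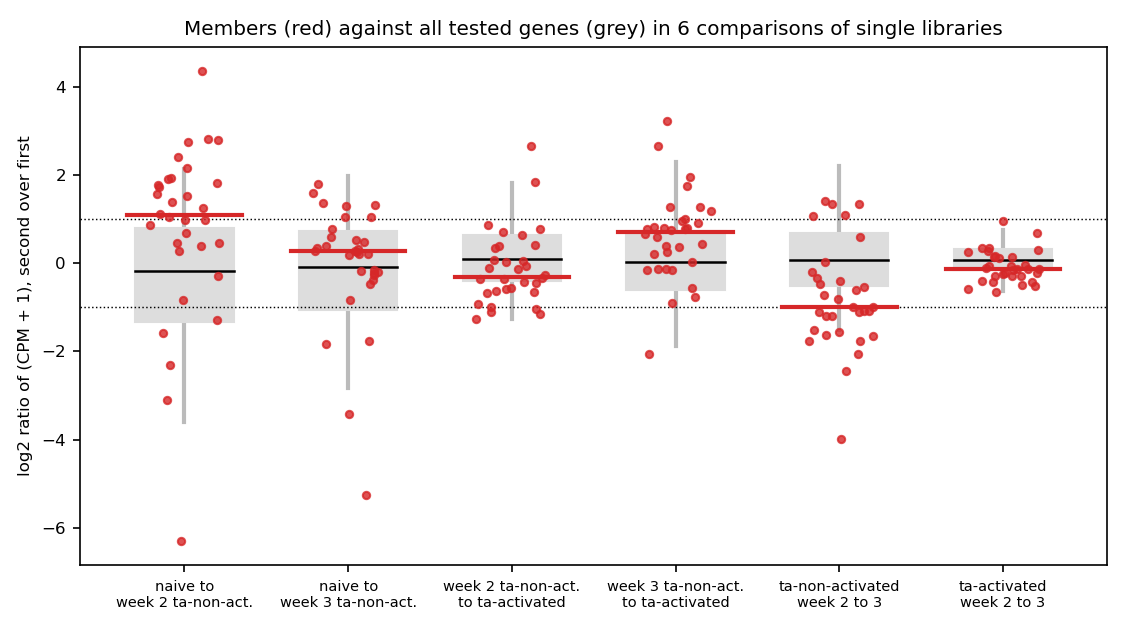
Log2 ratio of CPM + 1 (vertical axis) of the 32 tested members (red points, red bar at their median) and of all 9223 tested genes (grey box for the middle 50%, grey line from the 5th to the 95th percentile, black bar at the median) in 6 comparisons of single libraries. Dotted lines mark 2-fold, and the member median is 1.09 from naive to week 2 and near 0 between the cultured libraries.

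Culture with IL-2, IL-33 and TSLP was the one comparison with 2 libraries per group. It set cells cultured for 7 days against cells taken straight from the lung. No library was cultured without these cytokines, so activation and time in culture cannot be told apart. Each group held 1 library of week 2 and 1 of week 3, so the spread within a group includes the difference between weeks. In ta-non-activated ILC2s that spread also includes the T-like cells of week 3. The member sum did not separate the groups, with a mean log2 sum of 12.69 ± 0.66 (SD, n = 2) in ta-non-activated and 12.71 ± 0.09 (SD, n = 2) in ta-activated ILC2s, a difference of 0.03 that was smaller than the pooled SD of 0.47. The quasi-likelihood test of edgeR, adjusted by Benjamini-Hochberg over all genes, passed 0 of 34 members at 0.05, against 0% of 12643 genes. At an unadjusted p under 0.05 there were 3 members, against 16.8% of genes, and DESeq2 called 3 members, against 8.51% of genes. Ddit3, Atf6 and Atf3 made up both sets. Without the week 2 ta-non-activated library edgeR called 4 members (Atf6, Atf3, Asns and Sel1l), against 12.1% of genes, and without the week 3 one it called 1 (Ddit3), against 3.85%. Ddit3 had a log2 fold change of 2.21 (SE 0.56), with adjusted p = 0.251 by edgeR. Atf6 had a log2 fold change of 2.05 (SE 0.59), with adjusted p = 0.254 by edgeR. Atf3 had a log2 fold change of -1.78 (SE 0.48), with adjusted p = 0.252 by edgeR.

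The 2 weeks were also compared one by one, with 1 library per group and no test. In week 2, 2 of 32 members were at least 2-fold higher after culture, against 14.7% of genes, namely Ddit3 (2.66) and Atf6 (1.84). Another 4 were at least 2-fold lower, against 8.95%, namely Ssr2 (-1.26), Creld2 (-1.15), Hyou1 (-1.11) and Hspa5 (-1.03). In week 3, 7 were higher, against 18.2%, namely Asns (3.23), Atf6 (2.66), Ddit3 (1.96), Sel1l (1.74), Herpud1 (1.29), Sec61a1 (1.28) and Calr (1.19). One, Atf3 (-2.05), was lower, against 14.8%. Without T-like cells 11 members were higher, against 18.8% of genes, and 1 lower, against 10%, with Creld2 (1.18), Manf (1.23), Edem1 (1.28) and Syvn1 (1.44) added, and all 4 degradation genes among them. Values of both cultured libraries lay above both ta-non-activated ones for 6 members, against 30.2% of genes, and below them for 4, against 23.7%. Those above were Atf6, Ddit3, Sel1l, Syvn1, Sec61a1 and Ssr3, and those below were Hspa5, Atf3, Ssr1 and Ssr2. Without T-like cells 8 were above, with Dnajb9 and Edem1 added, against 29% of genes, and only Atf3 was below, against 15.7%. Dnajb9 was then above by a week 3 log2 ratio of only 0.04, within counting error. It had 87 UMIs in those week 3 ta-non-activated cells (interval 29.7 to 45.8 CPM). The TMM scaling moved the median of all genes in the week 3 comparison by 0.11.

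Other genes of the pathway, 85 in 8 lists, were counted in the same way. From naive to week 2 ta-non-activated ILC2s, 31 of 80 tested were at least 2-fold higher, against 20.6% of all genes, and 10 lower, against 30.8%. From naive to week 3, 11 were higher, against 18.2%, and 13 lower, against 26.5%, or 4 and 13 without T-like cells, against 4.04% and 21.7%. After culture 6 were higher and 6 lower in week 2, against 14.7% and 8.95%. In week 3, 12 were higher and 7 lower, against 18.2% and 14.8%, or 19 and 4 without T-like cells, against 18.8% and 10%. By edgeR 0 of 85 were called, against 0% of genes, with 10 at an unadjusted p under 0.05, against 16.8%. The 2 most abundant genes of each list are given next. Srp9 and Srp14, which halt translation on the signal recognition particle, ranged from 174 to 554 and from 169 to 332 CPM. Sec11c, a catalytic subunit of signal peptidase, was at 277, 844, 182 (366), 597 and 1114 CPM, while its partner Spcs2 stayed between 336 and 454. Both Sec11c values of the cultured libraries exceeded the naive and week 3 ta-non-activated ones. The oligosaccharyltransferase subunits Dad1 and Ostc ranged from 309.7 to 548 and from 96.6 to 368 CPM. The cargo receptors Tmed2 and Tmed10, which serve transport between ER and Golgi, ranged from 158 to 439 and from 162 to 306 CPM. Vcp, the segregase that pulls proteins from the ER membrane, and its anchor Selenos ranged from 101 to 308 and from 75 to 194 CPM. Most of these genes were thus highest in week 2 ta-non-activated or in cultured cells.

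The remaining named genes follow, and those other than Ero1l and P4hb departed from that order. Ero1l, the oxidase that recharges disulfide isomerases, was at 248, 303, 54.5 (144), 1276 and 1139 CPM, with both cultured libraries far above the rest, and its list partner P4hb ranged from 52.9 to 133. Ppp1r15a, the stress-induced phosphatase subunit GADD34 that restores translation, was at 366, 14.7, 474 (513), 21.9 and 19.4 CPM, beside 21.2 to 44.5 for the ATF6 protease Mbtps1. Its high libraries were the ones with high Atf3. Cebpb, a partner of ATF4, was at 413, 49.7, 401 (796), 136 and 38.8 CPM, and Slc3a2, the heavy chain of amino acid exchangers, at 245, 90.6, 211 (301), 112 and 97.4 CPM.

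Within the libraries that held much Il13, cells with more cytokine transcript also held more of the ER genes. The Spearman correlation of a cell's member sum with its Il13 UMIs per 10000 was 0.24 in week 2 ta-non-activated (1823 cells), 0.27 in week 2 ta-activated (2895 cells) and 0.33 in week 3 ta-activated ILC2s (3822 cells). With Il5 it was 0.34, 0.33 and 0.31. The cells of a correlation share 1 library, and both measures went with a cell's total UMIs, at correlations of 0.27 to 0.34 for the sum and 0.23 to 0.36 for the cytokines. After each cell was thinned to 2000 UMIs the correlations were 0.17, 0.18 and 0.22 with Il13 and 0.21, 0.18 and 0.18 with Il5. Within 4 equal bins of the cells by total UMIs, an alternative chosen after seeing the data, all 24 values were above 0.

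Cells split into 4 equal bins by Il13 showed the size of that relation. In week 2 ta-non-activated ILC2s the member sum was 8135, 8873, 9396 and 9656 CPM from the lowest to the highest bin. Week 2 ta-activated cells went from 6371 over 6501 and 6987 to 7759 CPM, and week 3 ta-activated cells from 5526 over 6071 and 6587 to 6992 CPM. The highest bin of both cultured libraries thus stayed below the lowest Il13 bin of the week 2 ta-non-activated one. By Il5 it did not in week 2, where the highest ta-activated bin was at 8119 CPM and the lowest ta-non-activated bin at 7937. Hspa5 went from 661 to 959.6 CPM between the lowest and highest Il13 bins of week 2 ta-non-activated cells, from 401 to 501 in week 2 ta-activated and from 353 to 536 in week 3 ta-activated cells. Median depth differed between these bins, at 11490 and 16680 UMIs in the lowest and highest of week 2 ta-non-activated cells. It was at 8857.5 and 19426.5 UMIs in week 2 ta-activated cells and at 9250 and 15753 in week 3 ta-activated cells. The part of depth was not tested.

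**Figure D4:**
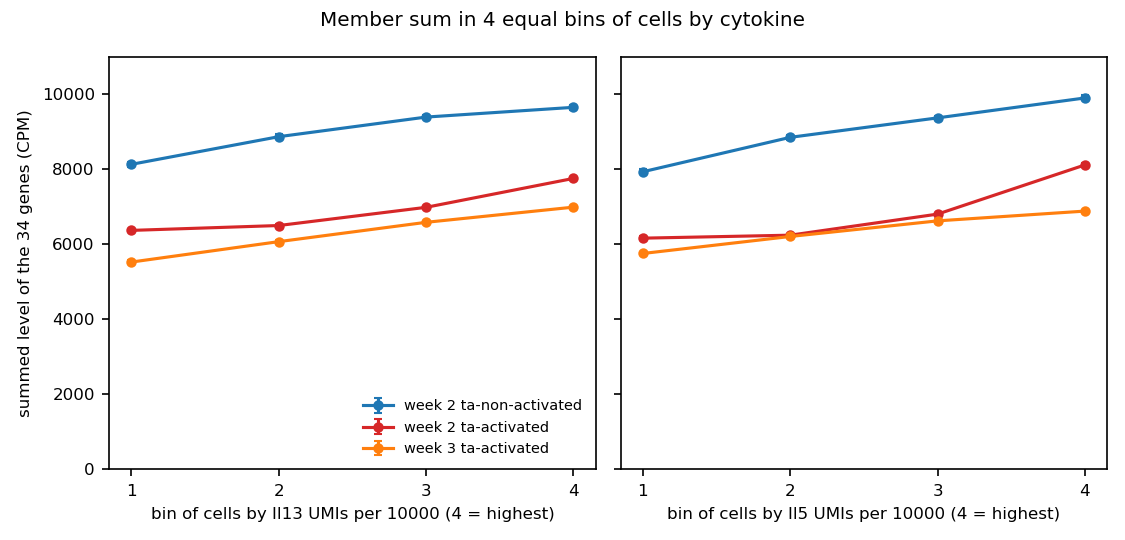
Summed level of the 34 genes in CPM (vertical axis, from 0) in 4 equal bins of the cells ordered by Il13 (left) or Il5 (right) UMIs per 10000, for 3 libraries, with 95% exact Poisson intervals that are smaller than the points. The week 2 ta-non-activated line climbs from 8135 to 9656 CPM across the Il13 bins and lies above both cultured lines throughout.

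Single members differed in this relation. The median rho over 32 members with Il13 was 0.10, 0.14 and 0.15 in the 3 libraries, and over all genes tested 0.02, 0.06 and 0.06. Manf, at 0.25, 0.22 and 0.29, Hspa5, at 0.28, 0.17 and 0.28, and Sec61g, at 0.18, 0.31 and 0.21, were among the highest. Ddit3 was the only member below -0.10 with Il13, at -0.12 and -0.14 in the cultured libraries, with 0.00 in week 2 ta-non-activated cells. Its level was 110.1 CPM in the lowest Il13 bin and 49.3 in the highest in week 2 ta-activated cells, and 162 and 73.7 CPM in week 3 ta-activated cells. Pdia3 was at -0.00, -0.05 and 0.09 and Sel1l at 0.05, 0.08 and 0.09, both below 0.10 in all 3 libraries. Atf4 had 0.20 in week 2 ta-non-activated but 0.02 and 0.02 in cultured cells.

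**Figure D5:**
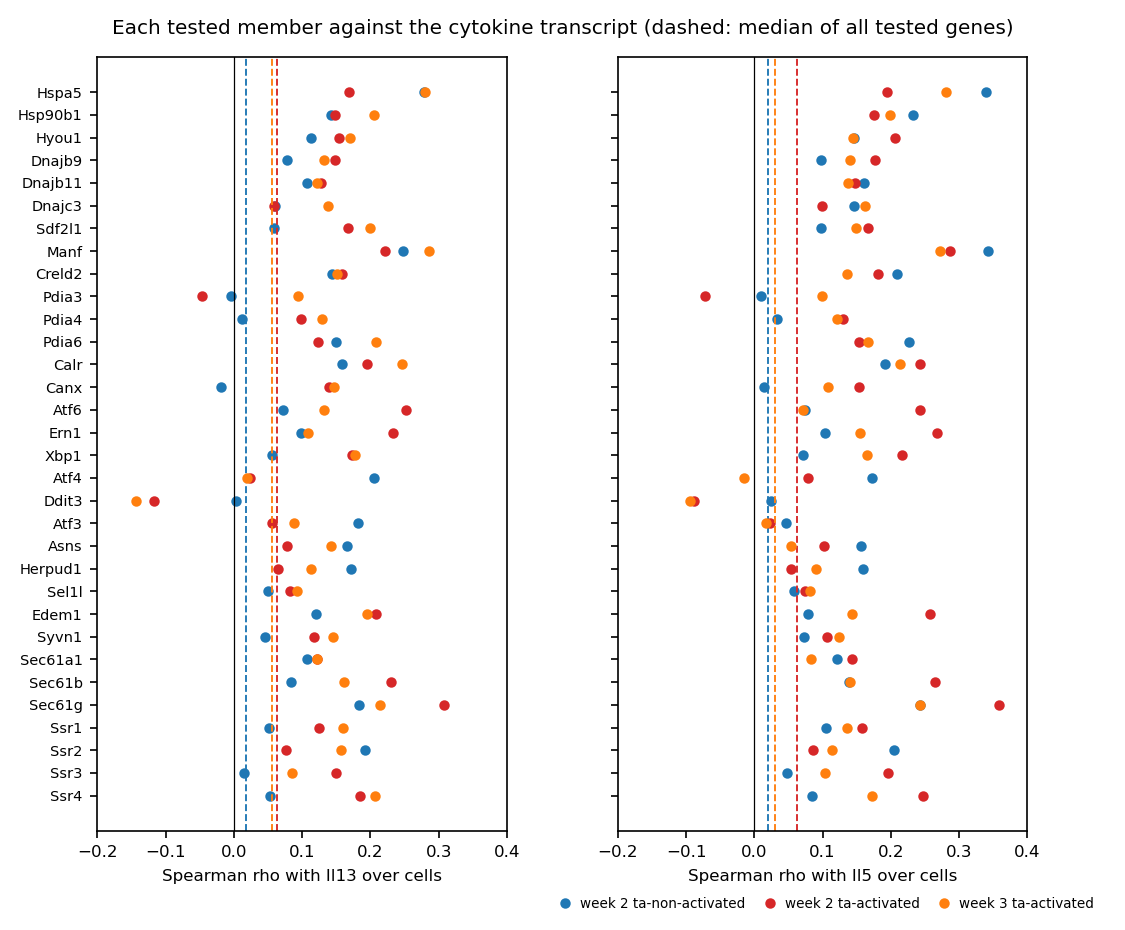
Spearman rho over cells of each of the 32 tested members with Il13 (left) and Il5 (right), with 1 point per library and a dashed line at the median of all tested genes in that library. Nearly all points lie right of 0, and Ddit3 in both cultured libraries, at -0.12 and -0.14 with Il13, lies left of it.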

How the data were processed

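Single-cell RNA libraries of mouse lung ILC2s (naive 1, ta-non-activated 2, ta-activated 2) were analysed from the UMI count matrices the authors deposited, made with Cell Ranger on GRCm38. The file headers give Cell Ranger 6.0.0 for the naive library and 3.0.2 for the others, and the submitters' processing notes also name Seurat 3. Whether intronic reads were counted is not given in the sources used here. Barcodes with fewer than 200 genes or with 5% or more mitochondrial counts were dropped, doublets were not called, and counts were summed per library (9394957 to 61830293 UMIs). The 2 ta-activated libraries were compared with the 2 ta-non-activated ones in edgeR 4.0.16 (R 4.3.3, filterByExpr, TMM, quasi-likelihood test, Benjamini-Hochberg over all genes). On simulated counts with no difference between weeks, the test recovered 88% of 2-fold changes at a dispersion of 0.01 and 23.5% at 0.05. Single libraries were compared on log2(CPM + 1) at 2-fold. All 34 members are named, and of each other pathway list the 2 genes with the highest mean CPM. Alternatives were DESeq2 1.42.0, other filters, scalings, cell sets and left-out libraries. Introns and coordinates came from GENCODE M21, promoters from RefSeq. Srp54a had 2 gene IDs and was left out. Members and lists were chosen with earlier results of these data known.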

Additional observations from a re-analysis of the deposited data

Results flagged for a closer look

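The member sum went in opposite directions with culture in the 2 weeks. Its log2 ratio of ta-activated over ta-non-activated ILC2s was -0.37 in week 2 and 0.42 in week 3 (0.56 without T-like cells). The difference was not tested, since each week had 1 library per group. From week 2 to week 3 the log2 ratio of the sum was -0.93 in ta-non-activated and -0.13 in ta-activated ILC2s. Of the 34 genes, 16 were lower after culture in week 2 and higher in week 3, 4 went the other way, 10 were higher in both weeks and 4 lower in both. Without T-like cells these counts were 19, 2, 12 and 1. The same counts were not made over all genes, so they do not set the members apart from other genes.

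In 7 genes the opposite ratios were at least 0.5 in size in both weeks, again with no test and no count over all genes. Manf stood at -0.56 in week 2 and 0.99 in week 3, Hsp90b1 at -0.63 and 0.77, and Dnajb11 at -0.65 and 0.79. Creld2 stood at -1.15 and 0.90, and Pdia3 at -0.57 and 0.81, or 0.13 in week 3 without T-like cells. Dnajb9 was at 0.65 in week 2 and -0.56 in week 3, and Edem1 at 0.88 and -0.90, but without T-like cells their week 3 values were 0.04 and 1.28. The week 3 ta-non-activated library held 53.1% T-like cells. Without T-like cells in either library the week 3 ratios were 1.23 for Manf, 0.59 for Hsp90b1, 0.68 for Dnajb11 and 1.18 for Creld2.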

How the results depend on the processing

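With edgeR 0 genes and 0 members were called, and DESeq2 called 1054 genes and 3 members. Leaving out each library in turn gave 0 to 1646 genes and 0 to 4 members, with 1646 and 4 (Atf6, Atf3, Asns, Sel1l) without week 2 ta-non-activated ILC2s and 513 and 1 (Ddit3) without week 3 ta-non-activated ILC2s, in fits where the lone library was assumed to vary like the others. The week as a replicate block gave 0 genes and 0 members. Deviations of the week 2 libraries from their group means correlated at -0.04 between the 2 groups. With 2 libraries per group, and many T-like cells in week 3 ta-non-activated ILC2s, this value cannot decide on pairing by week. The difference in the member sum lay between -0.44 and 0.49 with each library left out, being 0.49 without week 2 and -0.44 without week 3 ta-non-activated ILC2s, so its sign rests on those libraries.

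Members at least 2-fold higher from naive to week 3 ta-non-activated ILC2s numbered 1 in place of 7 without T-like cells, and likewise 1 without T-like and cycling cells, while the share of all genes went from 18.2% to 4.04% and 3.9%. From week 3 ta-non-activated to ta-activated they numbered 11 in place of 7 under both (18.8% and 17.5% of all genes, from 18.2%), and those lower 2 in place of 1 without the 5% of cells with the most UMIs (14.9%, from 14.8%). From week 2 to week 3 ta-non-activated those higher numbered 3 in place of 5 with a pseudocount of 5 CPM or TMM scaling (12.6% and 13.3%, from 17.1%), and 2 without T-like cells or without T-like and cycling cells (17.3% and 17.7%). After culture in week 2 they numbered 4 with a minimum of 1 CPM in place of 2 (15.8%, from 14.7%), and from week 2 to week 3 ta-activated 1 in place of 0 without the cells with the most UMIs (2.95%, from 2.73%). Without T-like cells, and also without cycling cells, Edem1 moved to -0.30 and -0.29 against naive and to -0.85 and -0.79 against week 2, and Atf3 to 0.012 against naive without both. Of 568 recomputed 2-fold ratios of members, 563 kept their direction. Leaving out both T-like and cycling cells was chosen after seeing the data.

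The correlations of the member sum in week 2 ta-non-activated, week 2 ta-activated and week 3 ta-activated cells were 0.17, 0.18 and 0.22 with Il13 and 0.21, 0.18 and 0.18 with Il5 after thinning. As Pearson's r they were 0.13, 0.21 and 0.24 with Il13 and 0.16, 0.28 and 0.22 with Il5. The week 3 ta-non-activated library was the shallowest, and Trib3, Chac1 and Asns had 17 UMIs or fewer there.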

Other observations

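Cycling cells (2 or more of 12 cell-cycle genes after thinning to 2000 UMIs) were sought among kept cells with at least 2000 UMIs. They made up 24.0% and 17.9% of such week 2 and week 3 ta-activated cells. In the ta-non-activated libraries they made up 6.80% and 10.8%, and in the naive one 0.634%. T-like cells were not left out. In week 3 ta-non-activated cells the ILC2 markers summed to 661 CPM in cycling and 2528 in other cells. The T cell markers summed to 4708 and 4271 CPM there. Some ER genes differed between cycling and other cells of their library. Asns was at 51.9 CPM in cycling and 19.6 in other week 2 ta-activated cells, at 36.9 and 20.9 in week 3, and at 62.4 and 40.9 in week 2 ta-non-activated cells. Sdf2l1 was also higher in cycling cells of all 3 libraries, at 175 against 129, 125 against 79.8 and 306 against 223 CPM.

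Ddit3 and Dnajb9 were lower in cycling cells of both cultured libraries. Ddit3 was at 34.7 against 77.8 CPM in week 2 and 62.8 against 116 CPM in week 3 ta-activated cells. Dnajb9 was at 23.5 against 51.5 and 24 against 43 CPM in the same libraries. In naive ILC2s Ddit3 was at 40 against 28.6 CPM, and in week 2 ta-non-activated cells Dnajb9 was at 23.3 against 26.3 CPM, with counting intervals that overlapped. Intervals also overlapped for Dnajb9 in naive ILC2s (42.1 against 65.8 CPM) and Ddit3 in week 3 ta-non-activated cells (18.5 against 28.2 CPM). They did not overlap for Ddit3 in week 2 ta-non-activated cells (5.44 against 9.40 CPM). Nor did they for Dnajb9 in week 3 ta-non-activated cells (40.4 against 63.7 CPM). T-like cells were not left out of the cycling or the other cells of that library. These are values of 1 library each, with no test, and the genes were chosen after their values were seen.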
